A study of Rattus norvegicus with 8 samples.

Results

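The 53 motile cilia genes measured here are those, of 14506 genes with a feature of their own on the array, whose symbols start with Dnah, Dnai, Dnaaf, Rsph, Cfap or Tekt, together with Foxj1, Spaca9, Clxn, Spag6l, Spag16, Ccdc39, Ccdc40, Zmynd10, Dnali1 and Hydin. Spag17 and Mcidas, which the same rule names, were not analysed here. The group was chosen on measured values: the lower levels of Spag6l, Clxn, Spaca9 and Cfap300 in FGF9 cultures at 10 days were known when it was drawn up. The 10-day values, and the counts of genes called by the fit at that time, are therefore a description: no p-value is given for a member there, and nothing is read from those calls. The same holds for the difference between the times, which contains the 10-day values. The 24 h comparison is the one read as a test, but it is not independent of that choice. Across all genes the 24 h and 10-day differences correlated at r = 0.424, and 1 pair of each time shares an array-name prefix. Genes chosen for a 10-day fall, such as Spag6l and Clxn, are therefore not independently tested at 24 h.

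Motile cilia are beating, hair-like projections built on the axoneme, a cylinder of paired outer microtubules around a central pair. Dynein arms on the outer microtubules make the cilium bend, radial spokes and the central pair regulate the beat, and molecular rulers set the spacing of the arms. The transcription factor Foxj1 switches on most of these genes. In the spinal cord the cells that carry them are the ependymal cells lining the central canal, while many other cells bear only an immotile primary cilium, which shares the transport machinery but has no dynein arms.

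Total RNA came from myelinating cultures prepared from spinal cords of Sprague-Dawley rat embryos (E15.5), in which neurons, astrocytes, oligodendrocytes and other spinal cord cells grow together. The cultures were left untreated, or received 100 ng/ml of human FGF9 (fibroblast growth factor 9, which signals through FGF receptors), and RNA was taken after 24 h or after 10 days. There were 2 arrays in each of the 4 groups, and 8 in all; the labels name no transgene or cell line, and the spinal cords had been cleared of meninges. The source field of the labels names neurosphere-derived astrocytes, but the titles and cell type field name myelinating cultures, and the arrays carried the markers of such a mixture: Mbp of myelin ran from 10.78 to 12.67, Snap25 of neurons from 11.76 to 13.78 and Gfap of astrocytes from 11.24 to 13.24 on the log2 scale.

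Within a time, each FGF9 array was paired with the control of its own replicate number, which has the same prefix in its array name. Pair 1 of the 24 h arrays has the prefix CL1, pair 2 of the 24 h arrays and pair 1 of the 10-day arrays both have CL2, and the second 10-day pair has AA1. What the prefix marks is not stated in the labels. The AA1 arrays stood apart from the others, with correlations across all 29214 features of 0.897 to 0.939 with them. The 2 AA1 arrays correlated at 0.968 with each other, and the other 6 at 0.962 to 0.989. Array medians lay between 6.62 and 6.73. The labels do not say that replicates were separate cultures, so errors and p-values reflect how far these arrays differed, which may be technical. All levels are log2 values, and all differences are FGF9 minus control on the log2 scale averaged over 2 pairs. Errors are standard errors (SE) from the fit with the pair as a block unless stated otherwise. That fit takes the spread of a gene from the pairs of both times together, so its SE is the same at 24 h and at 10 days. The SE and p of a 24 h difference therefore also reflect how far the 10-day pairs disagreed.

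The 3 markers of the group, Foxj1, Ccdc39 and Spag6l, were above the 25th percentile of all genes' mean levels (5.68) on every array. Their lowest values were 6.80, 6.03 and 5.92. This is a low bar: the lowest values of Ccdc39 and Spag6l were under the array medians of 6.62 to 6.73. It does not show which cells were present. Of the 53 genes, 33 had a mean above that percentile and 20 below it. For 8 genes all 8 values lay below it. The low genes are kept in every count that follows and are also given apart.

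Promoter windows were read for the genes to set their regulatory sequence beside their values. Such windows, from 250 bases before to 50 bases after the annotated start, were present for 43 of the 53 genes in the RefSeq table (assembly GRCr8); Foxj1, Clxn, Dnai4, Cfap52, Rsph1, Dnaaf1, Dnaaf11, Spag16, Tekt5 and Cfap107 had none. In all, 3 motifs were searched on both strands: GTTGCC, the half-site of RFX factors; their longer X-box; and TGTTTAC, a forkhead motif of the family to which Foxj1 belongs. The half-site and the X-box can overlap. Shown first are the windows of Spag6l and Hydin, the central pair genes with the widest 10-day differences, with the half-site in capitals (GGCAAC is the same motif on the other strand). The window of Dnali1 follows, with the forkhead motif in capitals, and then that of Dnaaf6, the only member window with an X-box, in capitals, although its gene was higher with FGF9 in 3 of 4 pairs. They lie at chr11:97677590-97677889 (plus strand), chr19:55146216-55146515 (plus), chr5:142611921-142612220 (minus) and chrX:108512752-108513051 (plus).
Spag6l: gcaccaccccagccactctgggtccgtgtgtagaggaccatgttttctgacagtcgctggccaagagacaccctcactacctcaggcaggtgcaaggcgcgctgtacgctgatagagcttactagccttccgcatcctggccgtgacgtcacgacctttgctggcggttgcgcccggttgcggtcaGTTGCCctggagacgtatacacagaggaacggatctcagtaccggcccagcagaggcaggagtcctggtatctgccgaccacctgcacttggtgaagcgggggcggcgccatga
Hydin: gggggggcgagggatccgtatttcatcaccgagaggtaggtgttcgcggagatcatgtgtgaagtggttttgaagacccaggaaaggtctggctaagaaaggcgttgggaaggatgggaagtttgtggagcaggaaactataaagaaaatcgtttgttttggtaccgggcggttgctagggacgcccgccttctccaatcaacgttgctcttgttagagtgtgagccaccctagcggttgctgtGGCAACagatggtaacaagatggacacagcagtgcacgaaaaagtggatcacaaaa
Dnali1: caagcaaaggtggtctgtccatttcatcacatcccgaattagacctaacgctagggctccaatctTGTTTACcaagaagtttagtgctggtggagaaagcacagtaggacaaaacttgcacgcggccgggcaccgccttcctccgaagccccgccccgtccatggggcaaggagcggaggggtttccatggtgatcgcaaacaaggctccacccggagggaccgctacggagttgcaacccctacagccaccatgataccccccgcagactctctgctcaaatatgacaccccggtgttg
Dnaaf6: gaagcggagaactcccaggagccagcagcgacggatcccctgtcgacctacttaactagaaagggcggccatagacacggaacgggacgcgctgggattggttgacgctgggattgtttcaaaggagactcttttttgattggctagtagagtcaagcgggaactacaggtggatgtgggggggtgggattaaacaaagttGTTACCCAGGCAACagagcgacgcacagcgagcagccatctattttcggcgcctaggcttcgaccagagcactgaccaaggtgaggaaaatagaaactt
The matches start at -64 from the annotated start in Spag6l, -6 in Hydin, -185 in Dnali1 and -49 in Dnaaf6. The half-site was present in windows of 14 of 43 members (32.6%), against 1491 of 11951 genes with a window (12.5%). It was as frequent in members lower in all 4 pairs (7 of 22, 31.8%) as in the remaining members (7 of 21, 33.3%). The X-box was found in 1 of 43 members (2.33%) and in 52 of all genes (0.435%). The forkhead motif was found in Dnali1, Tekt3 and Cfap20, or 3 of 43 members (6.98%), and in 359 of all genes (3.00%). A match describes these letters in this window and shows no binding.

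**Figure D1:**
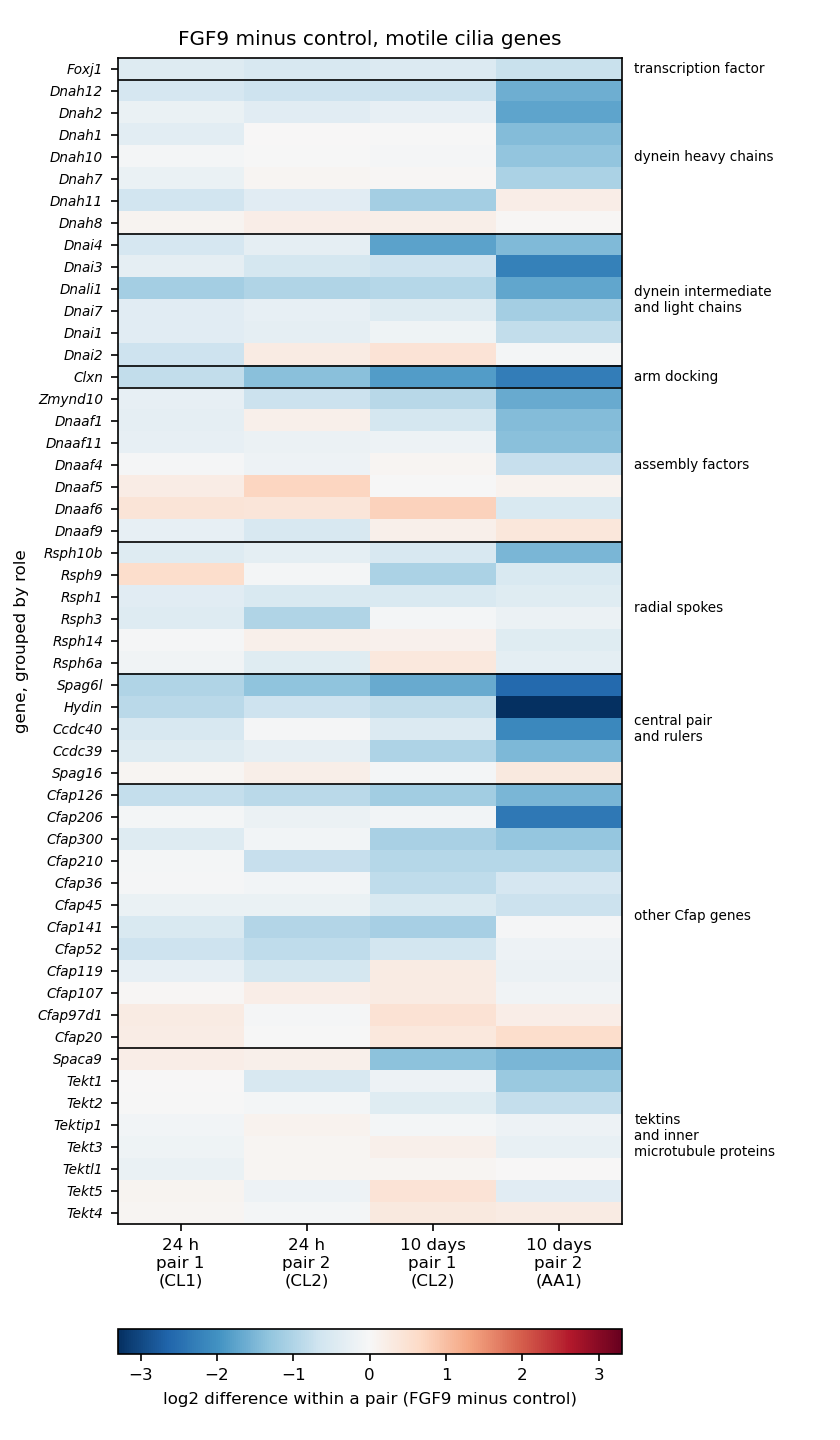
FGF9 minus control within each of the 4 pairs of arrays (columns) for the 53 motile cilia genes (rows, grouped by role), on a log2 colour scale with blue for lower in FGF9. Blue predominates in all 4 columns and is deepest in the AA1 pair at 10 days, where Hydin reached -3.27; most tektins are near white.

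After 24 h of FGF9 most motile cilia genes were lower than in the paired controls, by amounts that did not pass the test. Of the 53, 33 were lower in both pairs (62.3%), beside 32.9% of all genes, and 6 were higher in both. Their median difference was -0.25, at -0.26 in pair 1 and -0.20 in pair 2, while the median of all genes was near 0. The widest differences were in Spag6l, Clxn, Dnali1, Cfap126, Hydin and Cfap52. In these mixed cultures fewer ciliated cells and less RNA per cell cannot be told apart.

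In the limma fit with the pair as a block no gene on the array passed an adjusted p of 0.05 at 24 h in either direction, so the share called was 0% lower and 0% higher. The smallest adjusted p over all genes was 0.122, and those of the motile cilia genes ran from 0.142 to 0.995. At an unadjusted p under 0.05 there were 1800 of the 14506 genes on the array, 947 of them lower and 853 higher. Of the 53 motile cilia genes, 13 were lower at that threshold and 1, the assembly factor Dnaaf5, was higher. Without the block the smallest adjusted p over all genes was 0.718, with 280 genes at an unadjusted p under 0.05. When a 10-day array was left out, so that the spread came from the 24 h pairs alone, 237 genes were called at 24 h. Of these, 68 were lower (0.469% of all genes), 4 of them motile cilia genes (7.55% of members): Dnali1 (-1.06, adjusted p = 0.0289), Spag6l (-1.15, adjusted p = 0.0290), Cfap126 (-0.84, adjusted p = 0.0418) and Clxn (-1.09, adjusted p = 0.0451).

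After 10 days most motile cilia genes were again lower in the FGF9 cultures. The median difference was -0.59 over both pairs, but -0.27 with the AA1 pair left out, close to the -0.25 of 24 h. In all, 34 of 53 genes were lower in both pairs (64.2%), beside 30.0% of all genes. In the blocked fit 12 motile cilia genes were called lower (22.6%), beside 3.31% of all genes, and 0 were called higher, beside 3.12%. The 12 were Ccdc39, Cfap126, Cfap210, Cfap300, Cfap36, Clxn, Dnah12, Dnai4, Dnali1, Spaca9, Spag6l and Zmynd10. These are the values on which the group was chosen, and without the block no gene on the array was called (0%).

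Both times together, 28 of the 53 genes were lower in all 4 pairs (52.8%), beside 14.1% of all genes. Of the 12 genes called lower at 10 days, 11 were lower in both pairs at 24 h, the exception being Spaca9, beside 33 of all 53 members. The same count was not made for all genes on the array called lower at 10 days, so nothing is read from it. Across the 53 genes the differences at 24 h and at 10 days correlated at r = 0.605 (rho = 0.547), and across all 14506 genes at r = 0.424 (rho = 0.340). These correlations are across genes, which are not independent replicates, and 24 h pair 2 and 10-day pair 1 share a prefix. The difference between the effects at the 2 times was called for 7 genes on the array (0.0483%), of which none was a motile cilia gene.

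**Figure D2:**
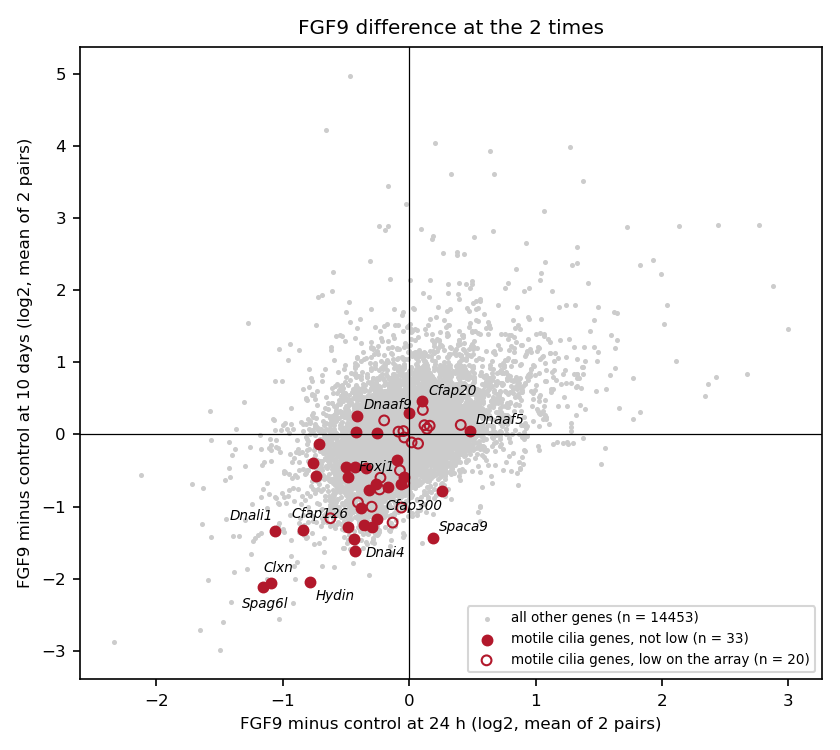
FGF9 minus control at 24 h (horizontal axis) against 10 days (vertical axis), each a mean of 2 pairs on the log2 scale, for the 53 motile cilia genes (red; open circles are low on the array) and all other genes (grey). Most red points lie below and left of 0, with Spag6l, Clxn and Hydin lowest, while Spaca9 was lower only at 10 days.

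The transcription factor Foxj1 (Entrez 116557) showed a small difference of like size at both times. At 24 h its level was 7.86 and 7.33 in the controls of pairs 1 and 2, and 7.44 and 6.80 in their FGF9 arrays. The FGF9 array was lower in each pair, but the groups overlapped because pair 1 was the higher in both. The mean difference was -0.48 ± 0.14 (SE from the pairs of both times; adjusted p = 0.290), or 1.40-fold lower. At 10 days the controls were at 7.40 (CL2) and 7.61 (AA1) and the FGF9 arrays at 6.96 and 6.88, without overlap. That difference was -0.59 ± 0.14, or 1.50-fold, and without the block the SE at each time was 0.29. The CL2 and AA1 controls of Foxj1 were close together, whereas the median difference between those arrays over all 53 genes was 0.67.

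The 5 central pair and ruler genes had a median of -0.36 at 24 h and -1.28 at 10 days. Of these genes 4 were lower in all 4 pairs, beside 14.1% of all genes. The exception, named after its values were seen, was Spag16, a central pair protein that was higher in 3 of 4 pairs. Spag6l (Entrez 360747), which encodes a central pair protein needed for a normal beat, was at 7.74 and 7.34 in the 24 h controls and at 6.74 and 6.02 in the FGF9 arrays. Its 10-day controls were at 7.60 (CL2) and 9.96 (AA1), and the FGF9 arrays at 5.92 and 7.40. The groups did not overlap at either time, and the AA1 arrays were the higher in both groups. The differences were -1.15 ± 0.23 at 24 h (adjusted p = 0.183; 2.23-fold lower) and -2.12 ± 0.23 at 10 days (4.34-fold lower).

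Hydin, a very large protein of the central pair apparatus, was at 6.52 and 5.69 in the 24 h controls and at 5.65 and 5.00 with FGF9. At 10 days it was at 5.74 in the CL2 control and 8.57 in the AA1 control, against 4.93 and 5.30 with FGF9. The FGF9 arrays were thus alike and the controls far apart, so that the pairs gave -0.81 (CL2) and -3.27 (AA1), a mean of -2.04 ± 0.52. The 24 h pairs were close to each other, at -0.88 and -0.69, for a mean of -0.79 ± 0.52 (adjusted p = 0.600). This SE and p carry the disagreement of the 10-day pairs and do not measure the 24 h spread alone.

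The rulers Ccdc39 and Ccdc40, which together fix where dynein arms and spokes attach, showed smaller differences at 24 h than at 10 days. Ccdc39 was at 7.18 and 7.06 in the 24 h controls and at 6.76 in both FGF9 arrays. At 10 days it was at 7.05 (CL2) and 8.17 (AA1) in controls and at 6.03 and 6.69 with FGF9. The groups did not overlap at either time. The differences were -0.36 ± 0.16 at 24 h (adjusted p = 0.438) and -1.25 ± 0.16 at 10 days. Ccdc40 differed by -0.29 ± 0.38 at 24 h and by -1.28 ± 0.38 at 10 days, most of it in the AA1 pair, where the control was at 7.66 and the FGF9 array at 5.53.

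Of the proteins that make up or hold the dynein arms, Clxn had the widest differences. Clxn (calaxin, Entrez 301957) is a calcium-binding protein at the docking site of the outer dynein arms. It was at 8.06 and 8.00 in the 24 h controls, at 7.25 and 6.63 with FGF9, at 8.93 and 10.44 in the 10-day controls and at 7.10 and 8.15 with FGF9. No group overlapped its control, and every pair gave a difference of -0.80 or lower. The differences were -1.09 ± 0.20 at 24 h (adjusted p = 0.146; 2.13-fold lower) and -2.06 ± 0.20 at 10 days (4.17-fold).

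Dnali1, a light intermediate chain of inner arms, had levels of 6.97 and 6.58 in the 24 h controls and 5.85 and 5.58 with FGF9. Its 10-day controls were at 6.76 (CL2) and 7.87 (AA1), and the FGF9 arrays at 5.82 and 6.14. The groups did not overlap at either time, and the differences were close to each other, at -1.06 ± 0.21 (adjusted p = 0.171) and -1.34 ± 0.21. Dnai4, an intermediate chain, was instead lower mainly at 10 days.

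For Dnai4 the 24 h controls, at 8.64 and 7.85, overlapped the FGF9 arrays, at 8.09 and 7.55. At 10 days they did not, with controls at 8.42 (CL2) and 9.23 (AA1) and FGF9 arrays at 6.65 and 7.77. The differences were -0.43 ± 0.15 (adjusted p = 0.354) and -1.62 ± 0.15. Dnai3 differed by -0.43 ± 0.34 and -1.45 ± 0.34, and its AA1 control alone reached 8.60 while its other 3 controls lay between 5.85 and 6.15. Of the 6 genes of this role, Dnai2 was the exception, lower in 1 of 2 pairs at each time, and was also named after its values were seen.

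The 7 axonemal dynein heavy chains, the motor subunits themselves, were mostly low on the array (5 of 7). Their median difference was -0.17 at 24 h and -0.68 at 10 days. At each time 4 of 7 were lower in both pairs, beside 32.9% of all genes at 24 h and 30.0% at 10 days. Dnah12, an inner-arm chain, was at 5.75 and 5.23 in the 24 h controls and at 5.20 and 4.54 with FGF9. At 10 days it was at 5.74 and 7.57 in controls and at 5.02 and 5.96 with FGF9, so that the groups overlapped although each pair was lower. The differences were -0.62 ± 0.22 (adjusted p = 0.358) and -1.16 ± 0.22.

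Dnah2 and Dnah1, both inner-arm chains, followed the AA1 control. Dnah2 was between 4.97 and 5.22 in 3 controls and at 6.68 in the AA1 control, and Dnah1 between 5.48 and 5.89 in 3 controls and at 7.37 in the AA1 control. The 10-day difference of Dnah2 was -0.27 in the CL2 pair and -1.74 in the AA1 pair (SE of the mean 0.33). That of Dnah1 was -0.02 and -1.43 (SE 0.32). Dnah8, likewise named after its values were seen, was higher in both pairs at each time, by 0.16 and 0.12 on average, with every level at or below 4.72.

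Among 7 assembly factors, cytoplasmic proteins that fold and load dynein arms, Zmynd10, Dnaaf1 and Dnaaf11 were lower in both pairs at 10 days, Dnaaf9 was higher in both, and Dnaaf4, Dnaaf5 and Dnaaf6 had pairs of opposite sign. Zmynd10 was the only one called, at 10 days, when 3.31% of all genes were called lower. Zmynd10 was at 6.85 and 6.80 in the 24 h controls, at 6.59 and 6.10 with FGF9, at 6.91 and 8.19 in the 10-day controls and at 5.98 and 6.54 with FGF9. The groups did not overlap at either time, and the differences were -0.48 ± 0.22 (adjusted p = 0.439) and -1.29 ± 0.22. Dnaaf1 differed by -0.06 ± 0.24 at 24 h, with its pairs of opposite sign, and by -1.01 ± 0.24 at 10 days. Dnaaf11 differed by -0.23 ± 0.28 at 24 h and by -0.76 ± 0.28 at 10 days, from -0.16 in the CL2 pair to -1.37 in the AA1 pair.

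The other assembly factors are given because they depart from the group, and were picked after their values were seen. Dnaaf5 was at 8.63 and 7.72 in the 24 h controls and at 8.87 and 8.44 with FGF9, a difference of 0.48 ± 0.16 (adjusted p = 0.341). At 10 days its difference was 0.05 ± 0.16. Dnaaf9 was lower in both pairs at 24 h (-0.41 ± 0.15, adjusted p = 0.354) and higher in both at 10 days (0.26 ± 0.15). Its levels, from 10.05 to 11.16, stayed in the upper part of the array on all 8 arrays.

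Radial spoke genes, whose products carry signals from the central pair to the dynein arms, had a median difference of -0.32 at 24 h and -0.29 at 10 days. None of the 6 was called at either time. Only 3.31% of all genes were called lower at 10 days and 0% at 24 h, so nothing is read from this. Rsph10b was at 8.34 and 7.80 in the 24 h controls and 7.91 and 7.47 with FGF9, and at 8.17 and 8.60 in the 10-day controls and 7.64 and 7.09 with FGF9. The groups overlapped at 24 h and not at 10 days, with differences of -0.38 ± 0.24 (adjusted p = 0.573) and -1.02 ± 0.24.

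Rsph1, a spoke head protein, differed by the same amount at both times, at -0.43 ± 0.13 (adjusted p = 0.304) and -0.46 ± 0.13, with no overlap at either. Rsph9, also of the spoke head, was higher in pair 1 at 24 h and lower in the other 3 pairs, for differences of 0.26 ± 0.21 and -0.78 ± 0.21. Rsph3, named after its values were seen, ran the other way in time: it was lower at 24 h (-0.71 ± 0.17, adjusted p = 0.230) and close to its controls at 10 days (-0.13 ± 0.17).

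**Figure D3:**
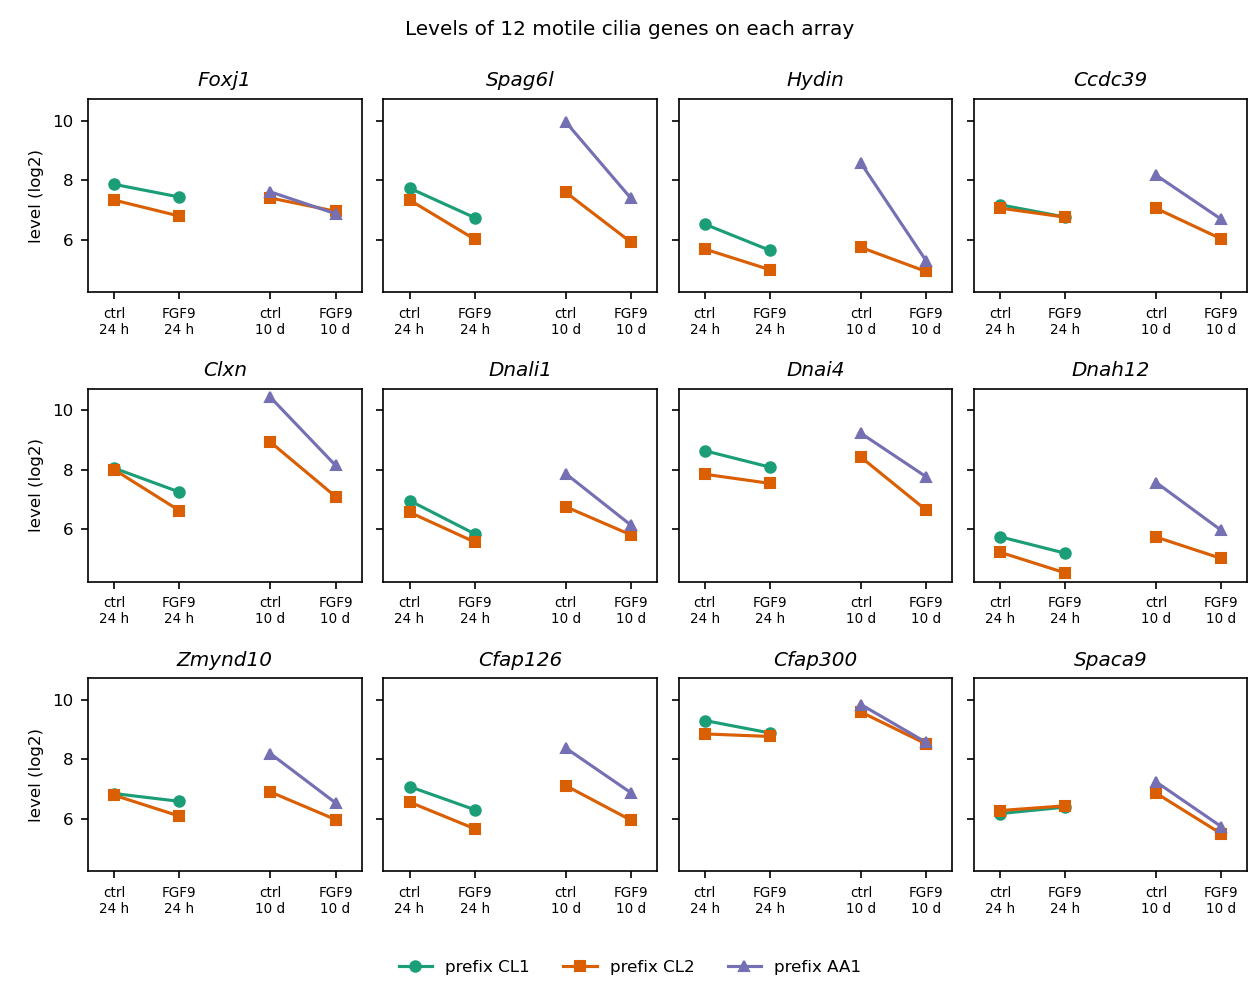
Levels (log2, 1 array each) of 12 motile cilia genes, with a line joining the control and FGF9 arrays of each pair, coloured by prefix. Lines slope down in nearly every pair; the AA1 control lies far above the other controls for Hydin (8.57) and Spag6l (9.96) but not for Foxj1 (7.61) or Cfap300 (9.84).

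The 12 other Cfap genes are a family named only for their association with cilia and flagella. Of these, 9 were lower in both pairs at 24 h and 8 at 10 days, beside 32.9% and 30.0% of all genes. At 10 days 4 were called lower, beside 3.31% of all genes. Cfap126 (Flattop), which lines the inner wall of the outer microtubules, was at 7.09 and 6.57 in the 24 h controls and at 6.31 and 5.67 with FGF9. At 10 days it was at 7.12 (CL2) and 8.38 (AA1) in controls and at 5.96 and 6.88 with FGF9. The groups did not overlap at either time, and the differences were -0.84 ± 0.15 (adjusted p = 0.142, the smallest of any member) and -1.33 ± 0.15. These correspond to 1.78-fold and 2.51-fold lower levels.

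Cfap300, needed for dynein arm assembly, was at 9.31 and 8.86 in the 24 h controls and at 8.89 and 8.77 with FGF9, with overlap. At 10 days the controls, at 9.59 and 9.84, and the FGF9 arrays, at 8.52 and 8.57, were each close together and well apart from the other group. The differences were -0.25 ± 0.15 (adjusted p = 0.553) and -1.17 ± 0.15, and without the block the SE was 0.22. Its low spread between the CL2 and AA1 controls set it apart from Hydin and Spag6l.

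Cfap52, an inner microtubule protein, was wider at 24 h than at 10 days. It was at 7.88 and 7.53 in the 24 h controls and at 7.20 and 6.68 with FGF9, without overlap, for a difference of -0.76 ± 0.16 (adjusted p = 0.189). At 10 days the prefixes differed more than the treatments, with 6.92 and 6.31 on the CL2 arrays and 8.50 and 8.33 on the AA1 arrays, and the difference was -0.39 ± 0.16. Cfap206, which is part of the radial spoke base, was between 4.81 and 5.35 on 7 arrays and at 7.71 in the AA1 control, so that its 10-day difference of -1.22 ± 0.48 came from the AA1 pair (-2.36) and not from CL2 (-0.09).

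Cfap20 and Cfap36, named after their values were seen, are also present in cells with immotile cilia. Cfap20 was higher in both pairs at 10 days (0.46 ± 0.15), the largest mean increase of any member at that time. Cfap36 was lower in both pairs at 10 days (-0.69 ± 0.14), but its AA1 control, at 10.08, was below the CL2 control, at 11.46, the reverse of the members' median.

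For tektins and other proteins inside the microtubule wall the median difference was -0.04 at 24 h and -0.08 at 10 days. In both pairs 1 of 8 was lower at 24 h and 4 of 8 at 10 days, beside 32.9% and 30.0% of all genes. Tekt3, Tekt5, Tektip1 and Tektl1 were low on the array, and Tekt3 and Tekt5 are best known from sperm. Tekt1, which is also found in motile cilia of other tissues, differed by -0.26 ± 0.28 at 24 h and by -0.69 ± 0.28 at 10 days, from -0.16 in the CL2 pair to -1.23 in the AA1 pair. Tekt2 differed by -0.04 ± 0.15 and -0.59 ± 0.15.

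Spaca9, a protein inside the microtubules of cilia and sperm tails, was the exception of this role. At 24 h it was at 6.18 and 6.28 in controls and at 6.40 and 6.44 with FGF9, slightly higher in both pairs (0.19 ± 0.13, adjusted p = 0.625). At 10 days it was at 6.86 and 7.24 in controls and at 5.50 and 5.74 with FGF9, far apart and without overlap. The 10-day difference was -1.43 ± 0.13, or 2.70-fold lower, and -1.36 and -1.50 in the pairs. The difference between its 10-day and 24 h effects was -1.62 ± 0.19.

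The 10-day differences were wider in the AA1 pair, whose control held the highest levels of these genes. That array had a mean level of 7.23 over the 53 genes, against 6.33 to 6.52 in the 3 other controls, 6.06 and 6.27 in the 24 h FGF9 arrays, and 6.07 and 6.36 in the 10-day FGF9 arrays. In it 15 of 53 genes (28.3%) exceeded all 3 other controls by over 1 log2 unit, beside 4.69% of all genes. The median difference between the AA1 and CL2 controls was 0.67, and between the AA1 and CL2 FGF9 arrays 0.26. For 41 of 53 genes the difference was more negative in the AA1 pair than in the CL2 pair, with medians of -0.75 and -0.27. This count was not made for all genes on the array.

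In the CL2 pair alone 37 of 53 genes were lower, and in the AA1 pair 44. These counts were not made for all genes, whose median difference was 0.01 in each of these pairs. In both 10-day pairs 7 genes were lower by over 1 log2 unit (13.2%, beside 0.938% of all genes): Clxn, Spag6l, Spaca9, Cfap126, Dnai4, Ccdc39 and Cfap300. The count of 12 members called lower depended on the pair. It was 9 (17.0%) with the AA1 pair left out, beside 2.23% of all genes, and 25 (47.2%) with the CL2 pair of that time left out, beside 3.87%. Each of these fits has 1 pair at 10 days, and its error comes from the 24 h pairs alone. In the 33 genes that were not low on the array the 10-day medians were -0.53 in the CL2 pair and -0.80 in the AA1 pair. In the 20 low genes they were 0.00 and -0.45.

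**Figure D4:**
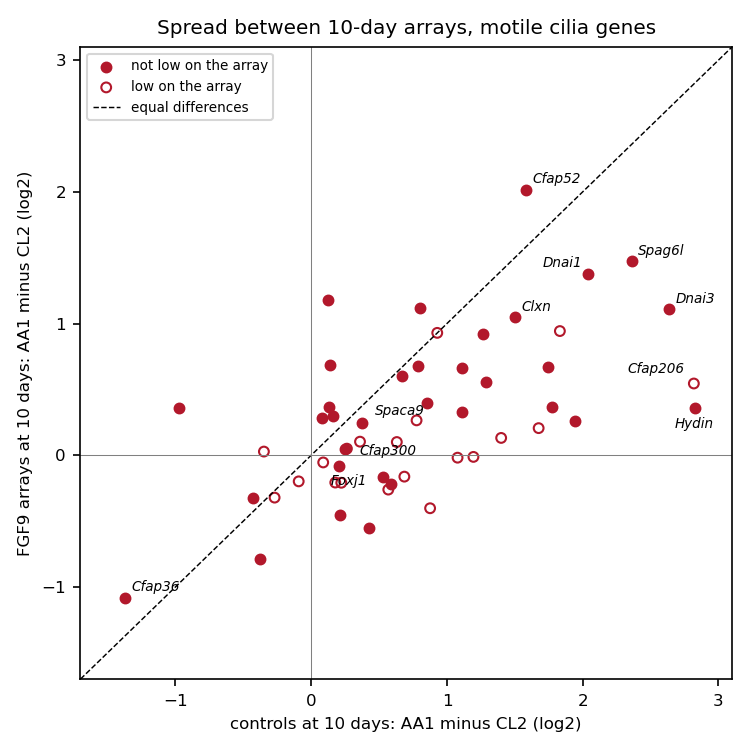
AA1 minus CL2 at 10 days for each motile cilia gene, in the controls (horizontal axis) and in the FGF9 arrays (vertical axis), on the log2 scale, with a dashed line of equal differences. Points right of the line are genes whose AA1 array was raised more in controls than with FGF9, with Hydin, Cfap206 and Dnai3 farthest right and Cfap36 at the lower left.

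Axoneme genes outside the naming rule had medians close to those of the members. Of 108 listed, 55 were measured, with medians of -0.20 at 24 h and -0.57 at 10 days. They were lower in both pairs for 38 of 55 at 24 h and for 40 of 55 at 10 days, beside 32.9% and 30.0% of all genes. At 10 days 5 were called lower, beside 3.31% of all genes, and 0 higher, beside 3.12%. The 5 were Vwa3a (-1.52 ± 0.19), Odad1, which helps dock outer arms (-1.26 ± 0.17), Iqcg, of the dynein regulatory complex (-1.06 ± 0.17), Mns1 (-1.65 ± 0.30) and Odad4, also of arm docking (-0.97 ± 0.19). The smallest p-values at 24 h were those of Iqub (-0.77 ± 0.15, adjusted p = 0.165), Vwa3a (-0.75 ± 0.19, adjusted p = 0.237), Drc3, of the dynein regulatory complex (-0.73 ± 0.22, adjusted p = 0.304), and Spa17 (-0.46 ± 0.15, adjusted p = 0.326).

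Genes that act above the axoneme, in the programme that turns a cell into a multiciliated one, were mixed at 24 h. At 10 days they were lower mainly in the AA1 pair, and none was called at either time. Of all genes 3.31% were called lower and 3.12% higher at 10 days, so nothing is read from this. Of 21 listed, 10 were measured, with medians of 0.15 at 24 h and -0.21 at 10 days. The 10-day median was 0.02 in the CL2 pair and -0.44 in the AA1 pair, whose control was above the CL2 control by a median of 0.77. At 24 h 3 of 10 were lower in both pairs, near the 32.9% of all genes, and 4 higher in both. At 10 days 5 were lower in both, beside 30.0% of all genes, and 2 higher in both. Rfx3 and Rfx2, factors that act with Foxj1, differed by -0.40 ± 0.14 (adjusted p = 0.339) and -0.39 ± 0.13 (adjusted p = 0.349) at 24 h and by -0.44 ± 0.14 and -0.20 ± 0.13 at 10 days. Ccno, needed for making many basal bodies, differed by -0.46 ± 0.17 (adjusted p = 0.382). Plk4, a kinase of centriole duplication that dividing cells use as well, was instead 1.02 ± 0.16 higher at 24 h (adjusted p = 0.134) and differed by -0.21 ± 0.16 at 10 days.

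Intraflagellar transport and primary cilium genes, which immotile cilia need too, were mostly lower at 10 days. Of 69 listed, 47 were measured, with medians of -0.10 at 24 h and -0.38 at 10 days. In the CL2 pair the 10-day median was -0.32, beside -0.27 for the motile cilia genes, and in the AA1 pair -0.35, beside -0.75. At 10 days 34 of 47 were lower in both pairs, beside 30.0% of all genes. At 24 h it was 20 of 47, beside 32.9%. In the 10-day comparison 5 were called lower, beside 3.31% of all genes, and 0 higher, beside 3.12%. The 5 were Tmem67 (-0.88 ± 0.16), Rpgrip1l (-1.04 ± 0.22) and Cep290 (-0.95 ± 0.13) of the transition zone at the cilium's base, the transport motor Dync2h1 (-0.75 ± 0.14) and the BBSome subunit Bbs7 (-0.72 ± 0.14). At 24 h Dync2li1, Ift81, Bbs4 and Ift172 had the smallest p-values, with differences from -0.35 to -0.27 and adjusted p-values from 0.396 to 0.472. The median difference between AA1 and CL2 controls was 0.18 in this list, against 0.68 in the other axoneme genes.

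**Figure D5:**
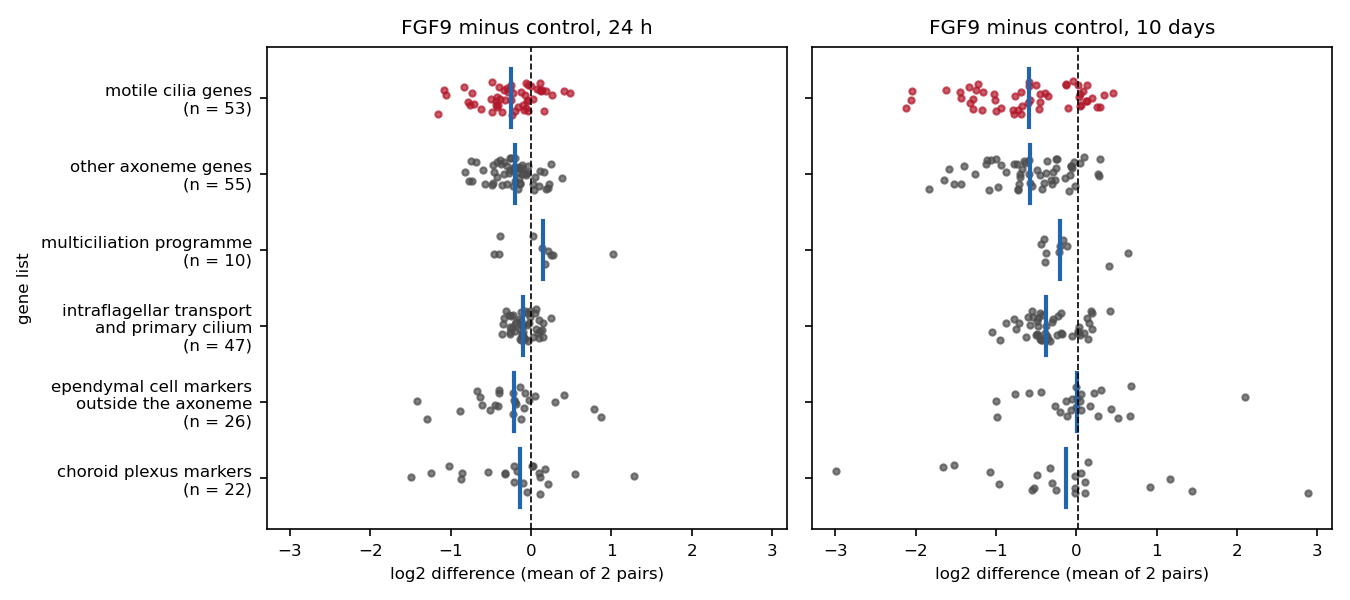
FGF9 minus control at 24 h (left) and 10 days (right) for each gene (points, mean of 2 pairs, log2; vertical scatter within a row carries no value) of 6 lists, with the list median as a blue bar and the median of all genes as a dashed line. The motile cilia genes and other axoneme genes have medians of -0.59 and -0.57 at 10 days, while ependymal cell markers outside the axoneme lie at 0.00. Whether those markers follow the ciliated cells was not tested.

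Ependymal cells, the ciliated lining of the central canal, express other genes besides those of the axoneme. Of 27 ependymal cell markers outside the axoneme, 26 were measured. Their mean level was 9.65 and 9.87 in the 10-day controls and 9.70 and 9.89 in the FGF9 arrays, and their median difference was 0.00. The motile cilia genes had mean levels of 6.45 and 7.23 in the same controls. Whether the ependymal list follows the ciliated cells, and its part in the motile cilia result, was not tested. At 10 days Nnat (-0.99 ± 0.13), Celsr3 (-0.77 ± 0.14) and Ank3 were called lower, and the membrane protein Prom1 (2.10 ± 0.31) and Dynlt1 (0.68 ± 0.14) higher. Of all genes 3.31% were called lower and 3.12% higher. Which cells of the mixed culture carried these differences was not tested. The neuron list also had a lower median at 10 days (-0.84). At 24 h the median was -0.22, with 17 of 26 lower in both pairs, beside 32.9% of all genes. The mean level was 9.62 in both controls against 9.41 and 9.30 with FGF9. The leading genes at 24 h were S100b (-1.42 ± 0.17, adjusted p = 0.122), Aqp4 (-1.30 ± 0.22, adjusted p = 0.141), Fzd6 (0.87 ± 0.16, adjusted p = 0.151) and Nnat (-0.61 ± 0.13, adjusted p = 0.198), of which S100b and Aqp4 are astrocyte markers as well.

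Choroid plexus epithelium also bears motile cilia, and 22 of its 24 listed markers were measured. Their median difference was -0.13 at each time, and 3 were called lower at 10 days, beside 3.31% of all genes. The 3 were Kcnj13, a potassium channel (-3.40 and -2.59 in the pairs), Calml4 (-1.66 ± 0.24) and the folate receptor Folr1 (-1.52 ± 0.25). At 24 h these were led by Calml4 (-1.25 ± 0.24, adjusted p = 0.165), Enpp2 (-1.02 ± 0.21, adjusted p = 0.184), Sostdc1 (-0.53 ± 0.14, adjusted p = 0.237) and Kcnj13 (-1.50 ± 0.41, adjusted p = 0.262). The list's mean level was 7.44 in the CL2 control and 6.42 in the AA1 control at 10 days, and 7.03 and 6.48 with FGF9. Ttr, the defining secreted product of this epithelium, was named after its values were seen. It was at 5.49 in the AA1 control and between 7.17 and 9.71 in the other 3 controls. The part of this list in the motile cilia result was not tested.

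Other cell type lists also differed with FGF9 or with the prefix, and their part in the motile cilia result was not tested. Neuron markers were lower in both pairs at 10 days for 16 of 17, beside 30.0% of all genes, with a median of -0.84. In this list 12 were called lower, beside 3.31% of all genes. The mean level of the list was 10.40 and 11.15 in the 10-day controls and 9.63 and 10.32 with FGF9. At 24 h the neuron median was -0.23. The neuron list was, like the motile cilia genes, higher in the AA1 than in the CL2 control, by a median of 0.87. For fibroblast and meningeal markers that median was -2.01, and for myelin markers -1.42.

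Astrocyte markers (14 of 16 measured) had medians of -0.57 at 24 h and 0.17 at 10 days, when Slc4a4 and the receptor Fgfr3 were called higher. Myelin and oligodendrocyte markers (14 of 17) had medians of -0.54 and 0.33, and Fa2h and Ugt8, enzymes of myelin lipids, were called higher at 10 days. Fibroblast and meningeal markers (12 of 12) had medians of -0.29 and -0.33, with the matrix genes Ogn and Omd called lower and Postn higher at 10 days. Microglia and macrophage markers (12 of 12) had medians of -0.06 and -0.09 and endothelial markers (8 of 8) of 0.07 and -0.06, with none called in either list. Genes called in a list at 10 days are named because they were called, after their values were seen. Over all genes 3.31% were called lower and 3.12% higher at that time. FGF-ERK feedback and target genes (17 of 18), which FGF receptors switch on, had medians of 0.78 and 1.23, and 12 of 17 were called higher at 10 days.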

How the data were processed

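Total RNA of the 8 samples was hybridised to Affymetrix Rat Gene 1.0 ST arrays. The deposited table holds 1 log2 value per feature and array; the scale was read from the values. Per the submitters' processing notes the authors worked with Partek 6.5 and with GCRMA, which corrects probe background and summarizes probes; what else was done is not given in the sources used here. Of 29214 features, 15310 had 1 gene symbol, 323 several and 13581 none. The feature with the highest mean was taken for the 527 genes with several, which left 14506 genes. The number of arrays limits the precision.

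Differences were fitted over all genes and arrays in R 4.3.3 with limma 3.58.1 (lmFit, eBayes), with the pair as a block (2 residual degrees of freedom), since FGF9 was compared with control within same-numbered replicates. The p-values were adjusted over all genes by Benjamini-Hochberg, with a threshold of 0.05. Deviations of same-numbered arrays from their group means correlated at 0.757 at 24 h and 0.819 at 10 days.

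The members and the 12 gene lists were chosen with earlier results of these data known. Named singly were Foxj1, Ccdc39, Spag6l, Clxn, Spaca9 and Cfap300, the 3 members of each role with the widest 10-day difference of 1 sign, the 5 with the smallest p at 24 h and up to 4 genes per list; others are said to be named after their values. Mbp, Snap25 and Gfap were named for their levels only. In the astrocyte, neuron, myelin, microglia, fibroblast, endothelial and FGF-ERK lists only called genes or none were named for their differences.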

Additional observations from a re-analysis of the deposited data

Results flagged for a closer look

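For Spaca9 both pairs were higher with FGF9 at 24 h and both were lower at 10 days, and the 10-day difference exceeded the 24 h difference by -1.62 ± 0.19 (SE, log2). For Dnaaf9 both pairs were lower at 24 h and both were higher at 10 days, a change of 0.67 ± 0.21 between the times. Neither was among the 7 genes called for that difference over the array, and Spaca9 was among the genes on whose 10-day values the group was chosen.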

How the results depend on the processing

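With no replicate block 0 genes and 0 motile cilia genes were called at 10 days, against 933 and 12 with the paired block; the log2 differences are the same in both fits, and the median SE over all genes was 0.287 without the block and 0.154 with it. With a random replicate block 605 genes were called at 10 days and 1 at 24 h. Leaving out each array in turn, which removes its pair from the estimate and so gives the same fit for both arrays of a pair, gave 469 to 1506 genes at 10 days, 9 to 25 motile cilia genes at 10 days, 0 to 237 genes and 0 to 4 motile cilia genes at 24 h, and medians of -0.26 to -0.20 at 24 h and -0.75 to -0.27 at 10 days. Without the AA1 pair, an alternative chosen after seeing the data, 569 genes were called at 10 days, and 237 genes and 4 motile cilia genes at 24 h, and the spread at both times then comes from the 24 h pairs alone. Dropping genes with low means moved the 24 h median to -0.38, since 20 members were left out. Leaving out a 24 h pair turned the sign of the 24 h difference for 4 of the 25 members named by rule, whose pairs differ in sign (over all 53, 39 had the same sign in both pairs): with 1 pair or the other left out it was 0.177 and -0.299 for Dnaaf1, 0.00819 and -0.346 for Dnah1, -0.0582 and 0.577 for Rsph9 (each first value without pair 1), and -0.537 and 0.0176 for Tekt1 (the second without pair 2). Quantile normalization, subtraction of array medians, the mean of a gene's features and a trended prior kept the direction of all 25 members named by rule at both times.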
